A study of Mus musculus with 10 samples.

Results

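Integrins are the receptors by which cells hold the extracellular matrix, and focal adhesion proteins tie them to the actin cytoskeleton. The 43 genes described here are the 18 integrin alpha subunit genes (named Itga followed by a number or letter), the 8 integrin beta subunit genes Itgb1 to Itgb8, and 17 focal adhesion proteins, chosen by name among the 32285 genes of the count table: the talins, the kindlins, vinculin, paxillin, zyxin, integrin-linked kinase, the parvins, the PINCH proteins, focal adhesion kinase and the tensins Tns1 and Tns2. The rule goes by gene name and uses no measured value, although it was set with earlier results of these data known. RNA from Achilles tendon, which joins the calf muscles to the heel, was sequenced from mice with a conditional knockout of Mkx, which encodes the tendon transcription factor Mohawk, and from controls. All animals received 20 mg/kg of tamoxifen at the age of 6 weeks, and tendons were collected 4 weeks later. The conditional knockout, Mkx-CreER/flox (n = 3), carries an Mkx-CreER allele, the source of a Cre recombinase that tamoxifen switches on, together with a floxed Mkx allele, from which this enzyme can cut out DNA. One control carries the CreER allele and no floxed allele (Mkx-CreER/+, n = 3), and the other carries the floxed allele and no Cre (Mkx flox/+, n = 4). The labels do not settle how many floxed copies the Mkx flox/+ mice hold, nor whether Mkx is still made from the CreER allele. Libraries were made by RamDA-seq, which copies total RNA and needs little of it, and are called by genotype and column number (Mkx-CreER/+ 1, 2 and 4; Mkx-CreER/flox 1, 4 and 5; Mkx flox/+ 1, 2, 3 and 4).

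An integrin is a pair of 1 alpha and 1 beta subunit. The alpha subunit largely sets the ligand: collagen for the products of Itga1, Itga2, Itga10 and Itga11, laminin for those of Itga3, Itga6 and Itga7, and proteins with the arginine-glycine-aspartate (RGD) sequence, such as fibronectin and vitronectin, for those of Itga5, Itga8, Itgav and Itga2b. Inside the cell, talins and kindlins bind the beta subunit tail and switch the receptor on, and the complex of integrin-linked kinase, PINCH and parvin, with vinculin, paxillin, zyxin and tensins, carries load to actin. In tendon these receptors hold fibroblasts to the collagen fibres that bear the pull of the muscle.

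Depth lay between 8680934 and 22656417 counts per library. Mkx itself was measured at 26.1, 32.4 and 30.5 CPM (counts scaled to library size by the TMM method) in Mkx-CreER/flox, at 91.4, 93.8 and 93.5 in Mkx-CreER/+, and at 187, 177, 121 and 153 in Mkx flox/+. The 3 genotypes did not overlap, and Mkx fell against both controls, given equal weight, (log2 fold change -2.04, SE 0.176; edgeR quasi-likelihood test, Benjamini-Hochberg adjusted p = 0.000149). A list of 12 tendon markers was present in every library, at a summed 41560 to 55770 CPM in Mkx-CreER/flox, 70420 to 90080 in Mkx-CreER/+ and 114400 to 167100 in Mkx flox/+, and 5 of its 12 genes fell against both controls. Markers of other cells were called too: 13 of 16 macrophage markers fell, while 6 of 24 skeletal muscle markers, 3 of 12 mural and smooth muscle markers, 2 of 12 endothelial markers and 1 of 11 tested Schwann cell markers rose. Of the remaining lists, 1 of 5 tested epidermis markers and 1 of 4 tested platelet markers fell, and edgeR called 0 of 19 adipocyte, erythroid, lymphocyte and neutrophil markers (3 had an unadjusted p under 0.05, DESeq2 called 0 and limma voom 1). Over all 16017 genes tested, 3.03% rose, 1.62% fell and 3310 had an unadjusted p under 0.05. A single call in so short a list is no result about that list. The Schwann cell list was called more widely by the other methods, with 4 of its 11 tested genes by DESeq2 and 6 by limma voom. All 11 had a positive log2 fold change against both controls (median 2.52), and 7 had an unadjusted p under 0.05 by edgeR. Epidermis was close to absent, with Krt5, Krt14 and Krt15 listed at 0 in every library. Of these, the tendon, muscle, macrophage, Schwann cell, mural and endothelial lists are given again beside the members.

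Per kilobase of exon (RPKM, which is CPM divided by exon length, the only scale on which genes are compared here), Itgb1, the common beta subunit of the collagen, laminin and fibronectin receptors, had the highest mean of the 43 genes over all libraries, with 125.1 ± 20.1 RPKM (SD, n = 10 libraries of all genotypes). Itgb5, which pairs with the alpha v subunit and binds vitronectin, came next with 99.9 ± 29.1 RPKM. Their order differed by genotype: in Mkx flox/+ Itgb5 stood at 128.6 ± 12.5 and Itgb1 at 122.7 ± 18.5 RPKM (SD, n = 4), within their spread, and in Mkx-CreER/flox Itgb5 stood at 67.2 ± 14.5 and Itgb1 at 139.2 ± 26.4 RPKM (SD, n = 3). Fermt2, the kindlin of most tissues, followed with 48.8 ± 8.95 RPKM, then Itga10 with 43.9 ± 12.3 and Tns1, a tensin that bridges integrin tails and actin, with 43.1 ± 7.99. The last 3 did not differ beyond their spread, and the means of Itgb1 and Itgb5 lay above those 3. Itga10 and Itga11 (27.1 ± 8.52 RPKM) were the highest of the alpha subunits, both of them collagen receptors, ahead of the widely expressed fibronectin receptor Itga5 (11.5 ± 2.52 RPKM). At the other end of the order stood the leukocyte subunits Itgae, Itgad, Itgal and Itgax, the platelet subunit Itga2b, Parvg and Fermt1, each with a mean under 1 RPKM. Ilk, the gene of integrin-linked kinase, was also listed near 0, with 2, 0 and 3 counts in Mkx-CreER/+, 1, 2 and 3 in Mkx-CreER/flox and 0, 0, 7 and 2 in Mkx flox/+. Of its exon length, 89.7% lies under exons of Taf10 and Rrp8, which run in the opposite direction, and no source used here says whether reads were counted by strand. The Ilk counts are not read as its expression.

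**Figure D1:**
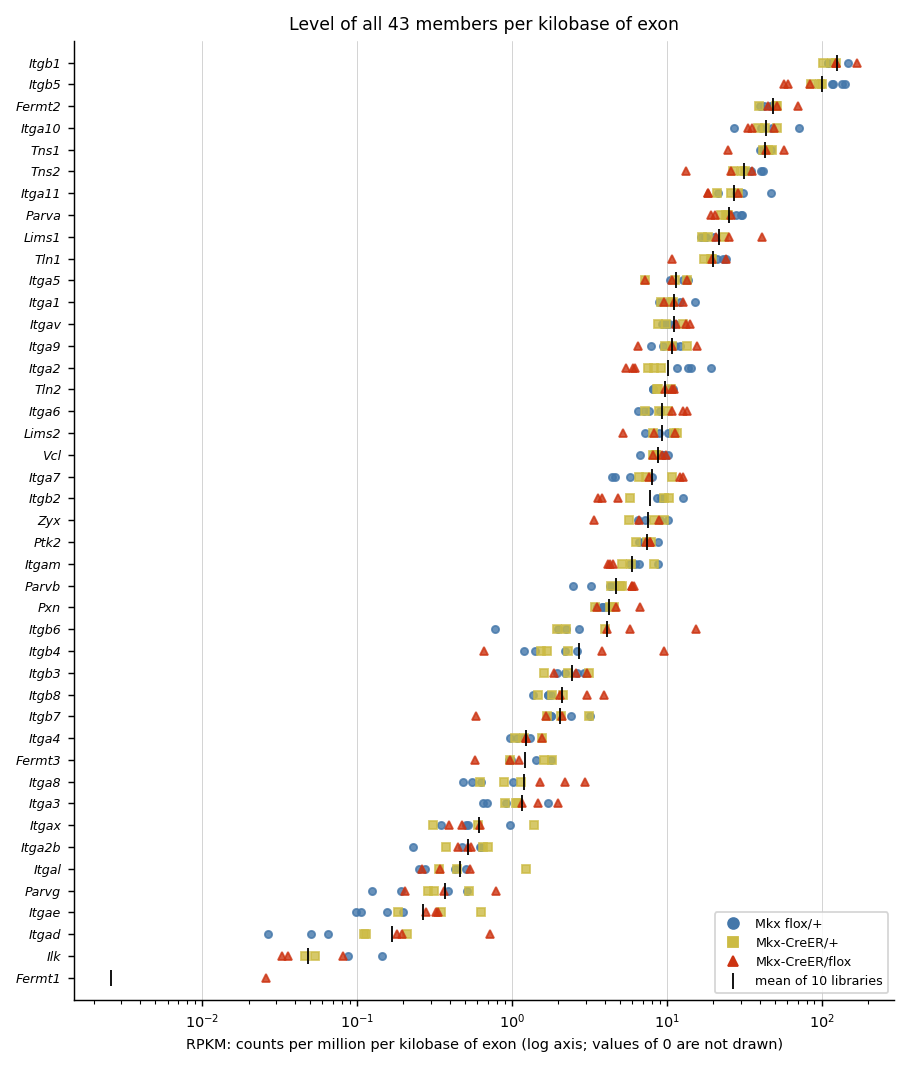
Level of each of the 43 genes in each library, in RPKM on a log axis, with 1 point per library coloured by genotype and a black bar at the mean of the 10 libraries; values of 0 are not drawn. Itgb1 and Itgb5 lie at the top, with Itgb1 at a mean of 125.1 RPKM, and the red Mkx-CreER/flox points of Itgb5 and Itga2 lie to the left of the other genotypes.

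Of the 43 genes, 41 had enough counts to be tested, all but Ilk and Fermt1. Against both controls 7 of them were called at an adjusted p under 0.05: Itga6, Itga8, Itgb6 and Itgb8 rose, and Itga2, Itgb2 and Itgb5 fell. That is 17.1% of the members tested, where 4.65% of the 16017 genes tested were called (3.03% rose and 1.62% fell). The median log2 fold change of the members was 0.05, and that of all genes 0.02. Against Mkx flox/+ alone 10 members were called, 24.4% of those tested, beside 7.27% of all genes (4.37% rose and 2.90% fell). These were the same 7 genes with Itga7, Itgad and Parvb, which rose. Itgad reached the count filter in 3 Mkx-CreER/flox libraries and in none of Mkx flox/+, so its call is partly set by the filter, and 9 members were called beside it. By other methods, against both controls, DESeq2 also called Itgad, Itgam and Lims1, and limma voom Itga3, Itga7, Itgam, Lims1 and Parvb. Over all 16017 genes tested, DESeq2 called 1459 and limma voom 2991, beside 744 by edgeR. Both comparisons hold the same Mkx-CreER/flox and Mkx flox/+ libraries, so the second is no independent repeat of the first. Since the labels number samples without saying how the tissue was pooled or paired, the p-values measure the spread between these samples. The calls against both controls were sensitive to single libraries: 0 members were called without Mkx-CreER/+ 2 or without Mkx-CreER/flox 4 (12 and 14 members, respectively, had an unadjusted p under 0.05), 2 without Mkx-CreER/+ 1, 3 without Mkx flox/+ 1, and 4 without Mkx flox/+ 2 or without Mkx flox/+ 3. In the omissions with 0 members called, 2693 of 16496 and 2854 of 16410 genes, respectively, had an unadjusted p under 0.05. With a muscle score (the mean log2 CPM of the muscle markers) as a term of the fit, 1 member, Itgb2, remained called against both controls. In that fit 88 of all genes were called.

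**Figure D2:**
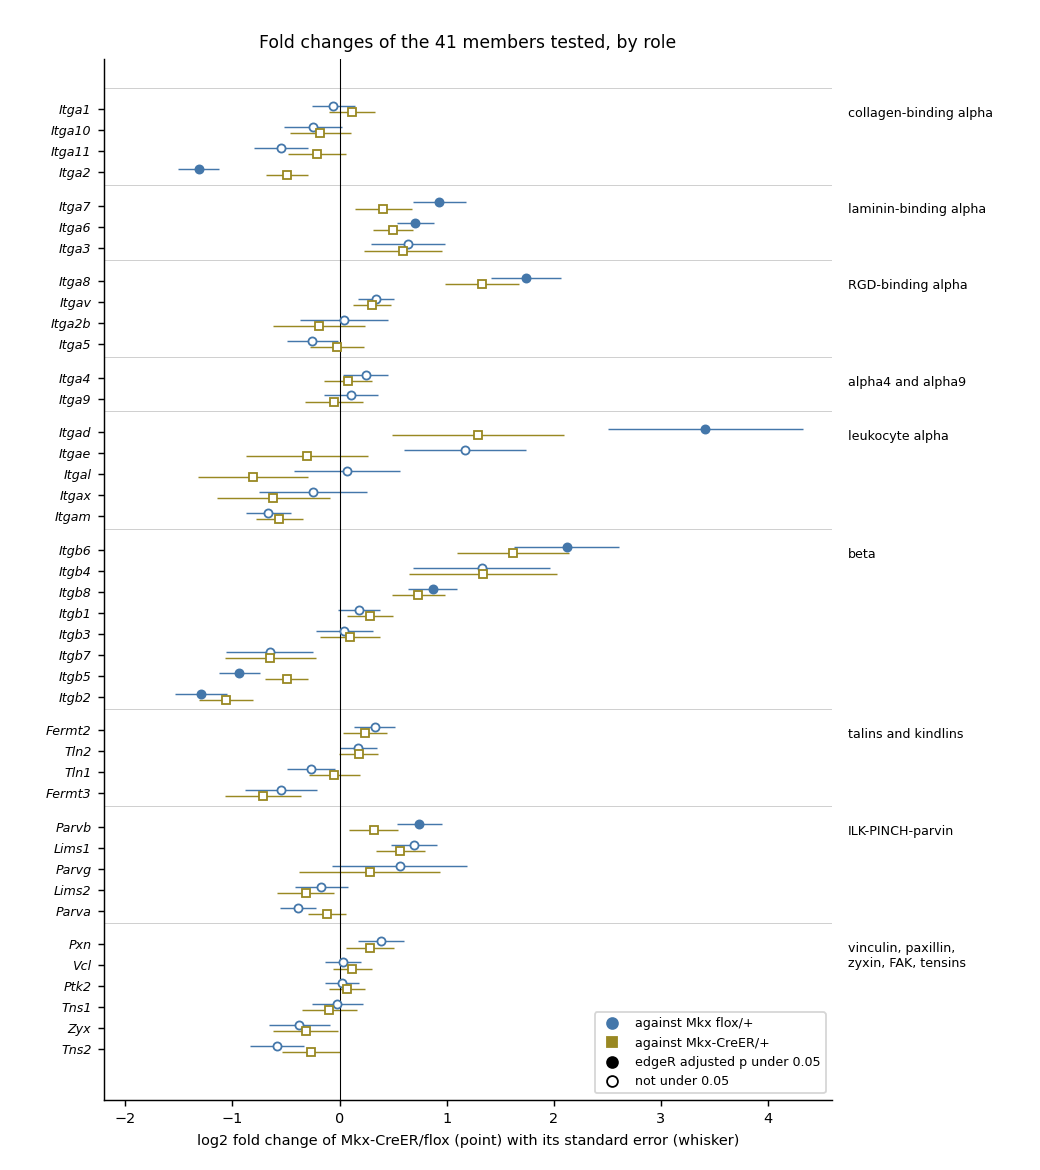
Log2 fold change of the 41 tested members in Mkx-CreER/flox against Mkx flox/+ (blue circles) and against Mkx-CreER/+ (ochre squares), with the standard error as whisker, grouped by role; filled symbols have an edgeR adjusted p under 0.05. The 10 filled symbols are all in the comparison with Mkx flox/+, from Itga2 at -1.32 to Itgad at 3.42, and the talins, kindlins, vinculin, paxillin, zyxin, FAK and tensins hold none.

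Itga2 encodes the alpha subunit of the collagen receptor α2β1 and was the only one of the 4 collagen-binding alpha subunits that was called. It was measured at 43.2, 39.0 and 44.7 CPM in Mkx-CreER/flox, at 54.1, 59.1 and 65.2 in Mkx-CreER/+, and at 102.6, 138.5, 82.7 and 97.6 in Mkx flox/+. The 3 genotypes did not overlap, in the same order as for Mkx. Itga2 fell 1.87-fold against both controls (log2 fold change -0.90, SE 0.173; edgeR adjusted p = 0.0198) and 2.49-fold against Mkx flox/+ (-1.32, SE 0.189; edgeR adjusted p = 0.00364). The gene lies on chromosome 13 (mm10, 114833081 to 114932100, minus strand), next to Itga1, which encodes another collagen-binding alpha subunit. Itga1 stood at 236.3, 179.9 and 208.5 CPM in Mkx-CreER/flox and between 165.3 and 285.1 in the 7 controls, so that the genotypes overlapped (log2 fold change 0.03 against both controls, SE 0.179; edgeR adjusted p = 0.95). Itga10 was not called either, with 175.0, 183.9 and 253.9 CPM in Mkx-CreER/flox, 200.9, 224.7 and 268.2 in Mkx-CreER/+, and 210.2, 370.7, 247.3 and 141.4 in Mkx flox/+ (-0.21, SE 0.244; edgeR adjusted p = 0.682). Of the exon length of Itga10, 33.5% is shared with a numbered gene model on the same strand. Itga11 differed by -0.38 (SE 0.231; edgeR adjusted p = 0.381). In bulk tissue, fewer cells of a type and less RNA per cell cannot be told apart. The call of Itga2 against both controls was lost without Mkx-CreER/+ 2 (-0.91, edgeR adjusted p = 0.0522) and without Mkx-CreER/flox 4 (-0.85, 0.066), and the call against Mkx flox/+ held in all 10 omissions of a library. The tendon markers stood in the same order of genotypes without overlap, at a summed 41560 to 55770 CPM in Mkx-CreER/flox, 70420 to 90080 in Mkx-CreER/+ and 114400 to 167100 in Mkx flox/+. Their part in the fall of Itga2, and in that of Itgb5 described next, was not tested.

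Among the beta subunits, Itgb5 showed the same order of genotypes as Itga2. Its level was 202.5, 216.0 and 297.7 CPM in Mkx-CreER/flox, 344.7, 359.5 and 302.8 in Mkx-CreER/+, and 416.9, 505.8, 483.0 and 421.5 in Mkx flox/+. Again the 3 genotypes did not overlap, although Mkx-CreER/flox 5 and Mkx-CreER/+ 4 were close. Itgb5 fell 1.64-fold against both controls (log2 fold change -0.71, SE 0.175; edgeR adjusted p = 0.0351) and 1.91-fold against Mkx flox/+ (-0.94, SE 0.191; edgeR adjusted p = 0.0129). It lies on chromosome 16 (mm10, 33829665 to 33949338, plus strand). The call against both controls was lost in 7 of the 10 omissions of a library (log2 fold change -0.92 to -0.63, edgeR adjusted p 0.0143 to 0.14 over all 10), held with Mkx-CreER/+ 4, Mkx-CreER/flox 5 or Mkx flox/+ 4 left out, and that against Mkx flox/+ was lost only without Mkx-CreER/flox 4 (-0.87, edgeR adjusted p = 0.0558).

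For Itga2 and Itgb5, the 250 bases before the RefSeq transcript start of each (GRCm38.p6) are given, 5′ to 3′ on the strand of the gene. Capitals mark any match to 4 motifs searched on both strands. The motifs were the E-box CANNTG, bound by basic helix-loop-helix factors such as scleraxis, the TEAD motif CATTCC, the AP-1 motif TGACTCA and the GC box GGGCGG. They were found in 66.2%, 12.6%, 4.46% and 32.7%, respectively, of all 32851 such windows in the RefSeq table. The Itga2 window is chr13:114932101-114932350 (minus strand) and the Itgb5 window chr16:33829415-33829664 (plus strand).
Itga2: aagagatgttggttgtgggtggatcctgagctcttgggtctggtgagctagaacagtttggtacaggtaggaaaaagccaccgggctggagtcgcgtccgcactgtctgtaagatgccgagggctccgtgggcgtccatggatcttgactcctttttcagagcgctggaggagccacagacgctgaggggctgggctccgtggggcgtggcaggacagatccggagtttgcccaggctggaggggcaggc
Itgb5: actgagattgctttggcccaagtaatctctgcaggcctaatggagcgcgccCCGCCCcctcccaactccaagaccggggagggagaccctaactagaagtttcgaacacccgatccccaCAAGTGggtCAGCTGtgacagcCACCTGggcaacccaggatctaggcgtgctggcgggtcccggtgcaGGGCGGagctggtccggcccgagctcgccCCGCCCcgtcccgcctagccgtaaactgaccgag
The Itga2 window held none of the 4 motifs. The Itgb5 window held 3 E-boxes and 3 GC boxes, the nearest of them 109 and 34 bases before the start. A match describes letters in this window and is not a measured binding site.

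Itgb6 and Itgb8, the beta subunits of the αvβ6 and αvβ8 receptors, which are known to release active TGF-β from its latent complex, both rose. Itgb6 reached 109.7, 41.1 and 29.3 CPM in Mkx-CreER/flox, beside 13.9, 15.9 and 28.5 in Mkx-CreER/+ and 14.2, 5.57, 16.0 and 19.2 in Mkx flox/+. All 3 Mkx-CreER/flox libraries lay above the 7 controls, Mkx-CreER/flox 5 by a narrow margin and Mkx-CreER/flox 1 far above the rest. The rise was 3.65-fold against both controls (log2 fold change 1.87, SE 0.415; edgeR adjusted p = 0.0326) and 4.35-fold against Mkx flox/+ (2.12, SE 0.489; edgeR adjusted p = 0.0266). Without Mkx-CreER/flox 1 the log2 fold change was 1.08 against both controls (edgeR adjusted p = 0.166) and 1.33 against Mkx flox/+ (0.0985). The call against both controls was also lost with Mkx-CreER/+ 1 (adjusted p = 0.0768), Mkx-CreER/+ 2 (0.0801), Mkx-CreER/flox 4 (0.0636) or Mkx flox/+ 1 (0.0593) left out, and that against Mkx flox/+ without Mkx flox/+ 1 (0.0704) or Mkx flox/+ 3 (0.0532). With no filter on low counts neither call passed (edgeR adjusted p = 0.0991 against both controls and 0.0952 against Mkx flox/+). Mkx-CreER/flox 1 is also the library with the highest sum of skeletal muscle markers, 145300 CPM, beside 80620 and 73920 in the other Mkx-CreER/flox libraries, 31570 to 85260 in Mkx-CreER/+ and 17600 to 58620 in Mkx flox/+. On the muscle score, Mkx-CreER/flox 1 (10.52) was close to Mkx-CreER/+ 2 (10.35), where Itgb6 stood at 15.9 CPM. Mkx-CreER/flox 4 (9.48, Itgb6 at 41.1 CPM) lay below Mkx flox/+ 4 (9.77, Itgb6 at 19.2 CPM). With the muscle score as a term of the fit, Itgb6 was no longer called (1.44, edgeR adjusted p = 0.171). In that fit the calls over all genes fell from 744 to 88, and the part of muscle in the rise of Itgb6 was not tested further.

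Itgb8 stood at 22.7, 33.9 and 43.3 CPM in Mkx-CreER/flox, 20.0, 16.3 and 23.6 in Mkx-CreER/+ and 19.1, 15.1, 19.8 and 18.8 in Mkx flox/+. Mkx-CreER/flox 1 lay below Mkx-CreER/+ 4, and the other Mkx-CreER/flox libraries lay above all controls. Itgb8 rose 1.75-fold against both controls (log2 fold change 0.80, SE 0.202; edgeR adjusted p = 0.0366) and 1.83-fold against Mkx flox/+ (0.87, SE 0.229; edgeR adjusted p = 0.0336). The call against both controls held without Mkx-CreER/+ 4 and without Mkx-CreER/flox 1, and was lost in the other 8 omissions (0.56 to 0.99, edgeR adjusted p 0.0182 to 0.139 over all 10). It was also lost with upper-quartile scaling (0.77, edgeR adjusted p = 0.0501). The call against Mkx flox/+ held with Mkx-CreER/+ 2, Mkx-CreER/+ 4 or Mkx-CreER/flox 1 left out, and was lost in the other 7 (0.62 to 0.91, edgeR adjusted p 0.0538 to 0.115) and when Mkx-CreER/flox and Mkx flox/+ were fitted alone (0.87, 0.053). Itgav, the alpha subunit that pairs with the products of Itgb5, Itgb6 and Itgb8, was measured at 151.8, 123.1 and 142.2 CPM in Mkx-CreER/flox and was not called (0.32, SE 0.152; edgeR adjusted p = 0.248). Itgb3, another partner of Itgav, was not called at 0.07 (SE 0.239; adjusted p = 0.905), nor was Itgb1, at 692.1, 506.3 and 505.3 CPM in Mkx-CreER/flox, 478.0, 416.9 and 503.9 in Mkx-CreER/+ and 608.8, 450.5, 447.8 and 495.6 in Mkx flox/+ (0.23, SE 0.177; adjusted p = 0.501).

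**Figure D3:**
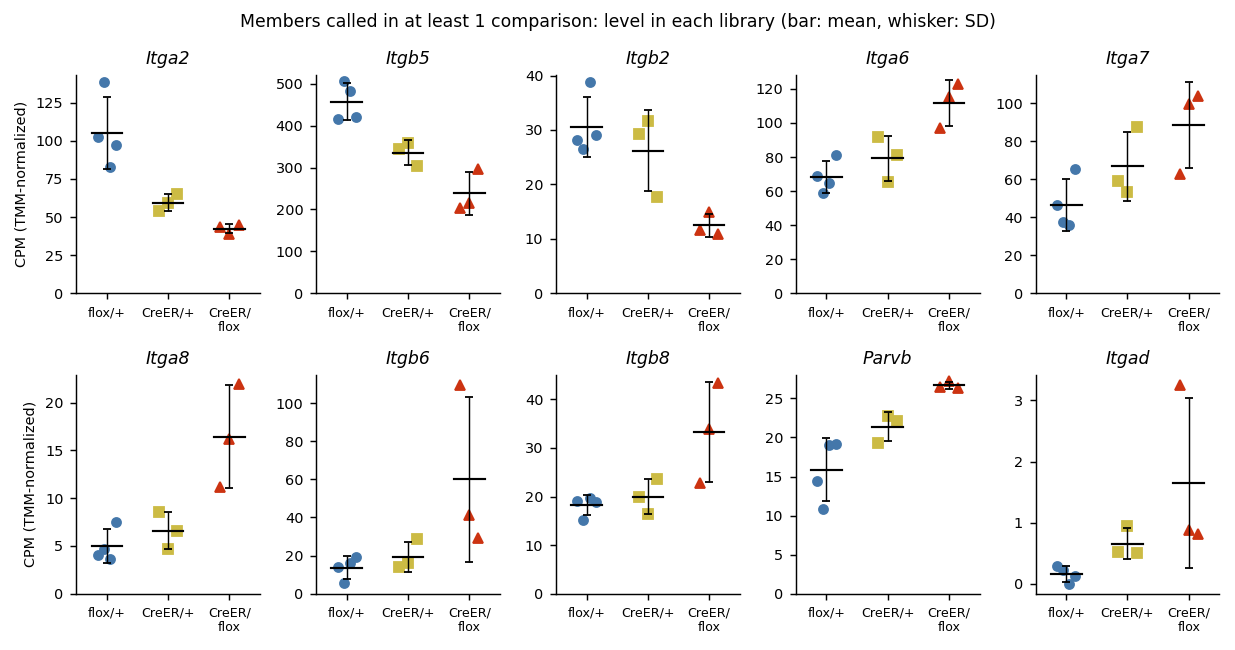
CPM of the 10 members called in at least 1 comparison, with 1 point per library, a bar at the group mean and a whisker of 1 SD, on linear axes; Mkx flox/+ is blue (n = 4), Mkx-CreER/+ ochre (n = 3) and Mkx-CreER/flox red (n = 3). In Itga2 and Itgb5 the 3 genotypes step down without overlap, and in Itgb6 and Itgad 1 Mkx-CreER/flox library (109.7 and 3.26 CPM) stands above the rest.

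The balance of subunits that share a partner was also read within each library, as ratios of RPKM, which do not depend on the scaling between libraries. There are 16 such pairs, 6 among the collagen-binding alpha subunits and 10 among the beta subunits known to pair with Itgav. Itga1 per Itga2 was 2.10, 1.77 and 1.79 in Mkx-CreER/flox, between 1.12 and 1.40 in Mkx-CreER/+ and between 0.65 and 0.875 in Mkx flox/+. Itgb5 per Itgb8 was 27.8, 19.9 and 21.4 in Mkx-CreER/flox, between 39.9 and 68.5 in Mkx-CreER/+ and between 68.0 and 104.2 in Mkx flox/+. Itgb1 per Itgb5 was 2.98, 2.04 and 1.48 in Mkx-CreER/flox, between 1.01 and 1.45 in Mkx-CreER/+ and between 0.775 and 1.27 in Mkx flox/+. In these pairs and in Itgb1 per Itgb6, Itgb3 per Itgb5 and Itgb5 per Itgb6, the Mkx-CreER/flox libraries did not overlap the 7 controls. Each of these 6 ratios gave p = 0.0167 in a two-sided exact permutation test over the libraries, and 0.0444 after adjustment over the 16. That p is the smallest that the 120 arrangements allow, and it passes the adjustment only once 6 of the 16 ratios reach it. The test pools the 7 controls, although the control genotypes did not overlap each other in Itga1 per Itga2. Omitting a library says little here: without 1 Mkx-CreER/flox library the smallest p that 36 arrangements allow is 0.0556, and without 1 control the smallest p is 0.0238, which passes the adjustment once 8 of the 16 ratios reach it. Each of the 6 ratios holds at least 1 member that was called by itself, so the ratios are no separate evidence. Itga2 per Itga10 (adjusted p = 0.0762) and Itga2 per Itga11 (0.0889) did not pass.

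**Figure D4:**
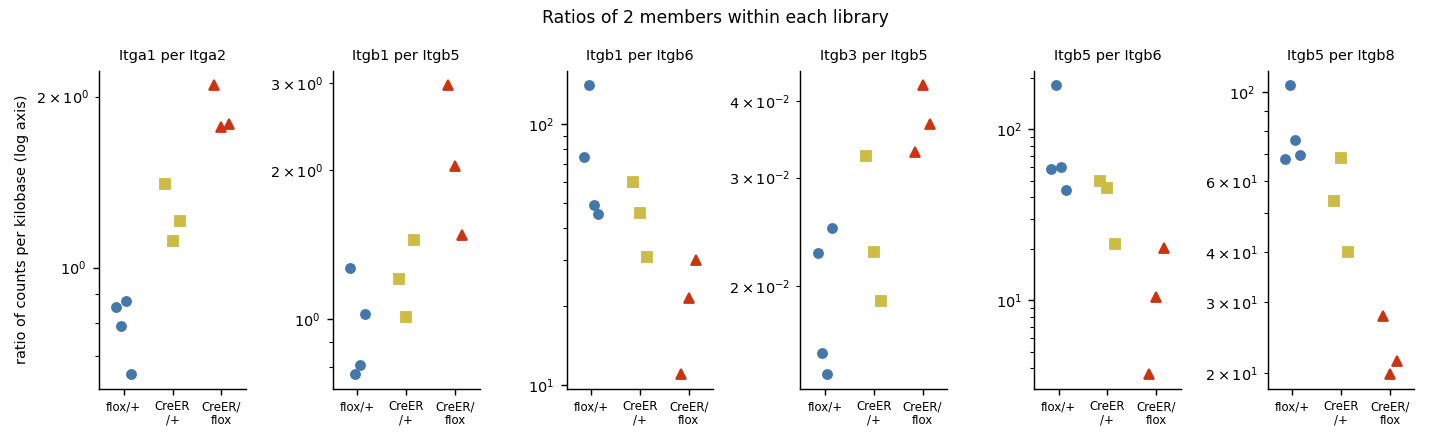
Ratio of 2 members within each library, as RPKM per RPKM on log axes, for the 6 of 16 pairs in which Mkx-CreER/flox did not overlap the controls; 1 point per library, no mean or error drawn. Itga1 per Itga2 lies at 1.77 to 2.10 in the 3 Mkx-CreER/flox libraries and at no more than 1.40 in the controls, and Itgb5 per Itgb8 at 19.9 to 27.8 and at no less than 39.9.

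Of the 3 laminin-binding alpha subunits, Itga6 rose against both controls and Itga6 and Itga7 against Mkx flox/+. Itga6, which pairs with Itgb1 or Itgb4 and anchors cells to basement membrane, was measured at 97.0, 115.5 and 122.8 CPM in Mkx-CreER/flox, 91.7, 65.2 and 80.9 in Mkx-CreER/+, and 69.1, 58.6, 64.8 and 81.2 in Mkx flox/+. All Mkx-CreER/flox libraries lay above the controls, for a 1.52-fold rise (log2 fold change 0.60, SE 0.155; edgeR adjusted p = 0.0394), and a 1.63-fold rise against Mkx flox/+ (0.71, SE 0.174; edgeR adjusted p = 0.0258). The first call was lost in every omission of a library but that of Mkx flox/+ 4 (0.52 to 0.67, edgeR adjusted p 0.0356 to 0.136 over all 10) and with upper-quartile scaling (0.56, 0.0566). The second was lost without Mkx-CreER/flox 4 or 5 or without Mkx flox/+ 1, 2 or 3 (0.62 to 0.70, edgeR adjusted p 0.0591 to 0.0863). Itga7, the laminin receptor of skeletal muscle fibres and their tendon junctions, stood at 62.5, 99.4 and 103.6 CPM in Mkx-CreER/flox, 59.2, 53.5 and 87.6 in Mkx-CreER/+ and 46.6, 37.5, 36.1 and 65.5 in Mkx flox/+. Mkx-CreER/flox 1, the library richest in muscle markers, was the lowest of its group and overlapped both controls. Itga7 rose 1.91-fold against Mkx flox/+ (0.93, SE 0.249; edgeR adjusted p = 0.0357), a call lost in 6 of the 10 omissions (of Mkx-CreER/+ 1, Mkx-CreER/flox 4 or 5, or Mkx flox/+ 1, 2 or 3; edgeR adjusted p 0.0558 to 0.123), and was not called against both controls (0.67, SE 0.22; 0.0951). With the muscle score as a term of the fit, Itga7 was no longer called against Mkx flox/+ (0.97, edgeR adjusted p = 0.123). In that fit 173 of all genes were called against Mkx flox/+, beside 1165 without the score. The part of muscle in the rise of Itga7 was not tested further. Itga3 was not called by edgeR (0.62, SE 0.303; adjusted p = 0.265). Against both controls limma voom called all 3 laminin-binding subunits, with Itga7 at 0.88 (adjusted p = 0.00223) and Itga3 at 0.70 (0.0325), and DESeq2 called Itga6 only.

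Itga8, whose product with Itgb1 binds nephronectin and fibronectin and is known from mesenchymal and smooth muscle cells, had the largest fold change of the RGD-binding alpha subunits. It was measured at 11.1, 16.2 and 22.0 CPM in Mkx-CreER/flox, 8.51, 4.62 and 6.56 in Mkx-CreER/+ and 4.09, 4.66, 3.58 and 7.55 in Mkx flox/+, with no overlap of Mkx-CreER/flox and the controls. The rise was 2.90-fold against both controls (log2 fold change 1.53, SE 0.279; edgeR adjusted p = 0.0167) and 3.34-fold against Mkx flox/+ (1.74, SE 0.327; edgeR adjusted p = 0.0102). The call against both controls was lost without Mkx-CreER/+ 2 (1.43, adjusted p = 0.0515) and without Mkx-CreER/flox 4 (1.54, 0.0538), and that against Mkx flox/+ held in all 10 omissions. Itga5 (-0.14, SE 0.216), Itgav and Itga2b (-0.08, SE 0.37) were not called. Itga9 and Itga4, whose products bind ligands such as VCAM1 and tenascin, were not called. Itga9 was at 0.03 (SE 0.228), and Itga4, the one with the smaller p, stood at 22.1, 17.2 and 17.1 CPM in Mkx-CreER/flox, 14.6, 21.9 and 16.7 in Mkx-CreER/+ and 13.5, 18.3, 15.0 and 16.8 in Mkx flox/+ (0.16, SE 0.191; edgeR adjusted p = 0.692).

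Itga8 and Itgb6 both lie on chromosome 2 (mm10, 12106632 to 12301922 and 60598292 to 60722643, minus strand) and had the largest rises of the 7 members called against both controls. Their windows of 250 bases before the RefSeq start (GRCm38.p6) are chr2:12301945-12302194 and chr2:60722604-60722853, both on the minus strand, with motif matches in capitals as above.
Itga8: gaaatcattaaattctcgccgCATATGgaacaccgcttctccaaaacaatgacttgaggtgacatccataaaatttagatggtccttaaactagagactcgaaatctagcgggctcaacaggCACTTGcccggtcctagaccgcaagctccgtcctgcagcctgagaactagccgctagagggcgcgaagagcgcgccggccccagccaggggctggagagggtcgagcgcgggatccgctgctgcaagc
Itgb6: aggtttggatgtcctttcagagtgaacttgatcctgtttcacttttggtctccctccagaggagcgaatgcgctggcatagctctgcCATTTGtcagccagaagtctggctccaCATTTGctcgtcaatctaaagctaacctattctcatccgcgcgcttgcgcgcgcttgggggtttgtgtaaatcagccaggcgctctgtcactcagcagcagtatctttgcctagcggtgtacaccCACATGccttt
The Itga8 window held 2 E-boxes and the Itgb6 window 3, the nearest 128 and 11 bases before the RefSeq start. RefSeq lists 2 starts for Itgb6, and the GENCODE start lies 40 bases upstream of the one used, so that the nearest E-box is inside the GENCODE transcript. For Itga8 the GENCODE start lies 22 bases downstream, and the first 30 bases of the RefSeq transcript were not found in GENCODE. The TEAD and AP-1 motifs were found in none of the 4 windows printed, and the GC box in that of Itgb5 only.

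Markers of nerve and vessel wall are set beside these genes within the Mkx-CreER/flox group. The 12 Schwann cell markers summed to 491.8, 1341 and 2357 CPM in Mkx-CreER/flox 1, 4 and 5, beside 441.7 to 1017 in Mkx-CreER/+ and 480.3 to 868.5 in Mkx flox/+. Itga6, Itga7, Itga8 and Itgb8 stood in the same order over the 3 libraries, and so did Itgb4, the partner of Itga6 in Schwann cells and epithelia, with 4.61, 26.7 and 67.0 CPM. The order is not particular to these genes. Members called in no comparison shared it, among them Tns1 (399.9, 703.7 and 912.6 CPM), Tns2 (72.4, 142.1 and 193.0) and Tln1 (106.4, 191.6 and 237.2). Itgb6 and Lims1 stood in the reverse order. Itgb4 was not called (log2 fold change 1.33, SE 0.555; edgeR adjusted p = 0.208). It stood at 16.3, 11.9 and 10.8 CPM in Mkx-CreER/+ and 9.93, 8.40, 15.5 and 18.5 in Mkx flox/+, and it was called once Mkx-CreER/flox 1, its lowest library, was left out (1.82, edgeR adjusted p = 0.0217). With the Schwann cell score as a term of the fit, an alternative added after the data were seen, Itga8 remained called against both controls. Itga6 (0.41, edgeR adjusted p = 0.108) and Itgb8 (0.49, 0.169) were no longer called, and Itgb4 was at -0.49 (0.454). Lims1 (0.83, edgeR adjusted p = 0.0118) and the low-count Itgad (2.82, 0.0232) were called only with this term. The calls over all genes against both controls rose from 744 to 1623. In that fit Itga7 was at 0.37 against both controls, and Itga6 (0.50, edgeR adjusted p = 0.071), Itga7 (0.63, 0.128) and Itgb8 (0.54, 0.157) were not called against Mkx flox/+ either. The 12 mural and smooth muscle markers summed to 2132, 2272 and 2519 CPM in Mkx-CreER/flox, 1314 to 1403 in Mkx-CreER/+ and 1010 to 1456 in Mkx flox/+. These sums did not overlap between Mkx-CreER/flox and the controls, but the mean log2 CPM of the list did. It was 5.58 in Mkx-CreER/flox 1, 5.93 in Mkx-CreER/+ 1 and 5.62 in Mkx flox/+ 4. The part of these markers in the rise of Itga8 was not tested. The 12 endothelial markers summed to 748.9, 842.6 and 960.8 CPM in Mkx-CreER/flox, in that same order of libraries. The sums overlapped Mkx-CreER/+ (633.9 to 759.4) but not Mkx flox/+ (529.5 to 719.4). Their mean log2 CPM overlapped both controls, at 5.672 in Mkx-CreER/flox 1, 5.725 in Mkx-CreER/+ 1 and 5.674 in Mkx flox/+ 4. Their part in these rises was not tested either.

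**Figure D5:**
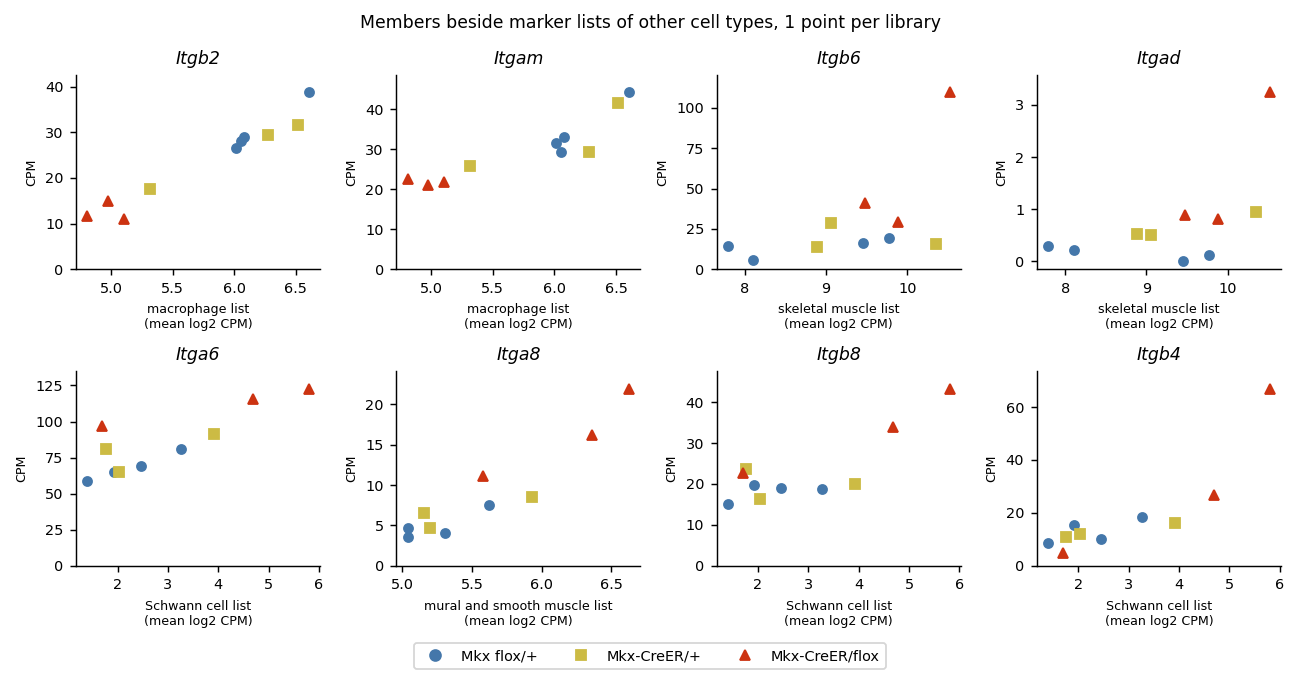
CPM of 8 members (vertical, linear) against the mean log2 CPM of a marker list of another cell type (horizontal), with 1 point per library coloured by genotype. Itgb2 and Itgam lie higher in libraries with more macrophage marker RNA, all 3 Mkx-CreER/flox libraries being at the low end, and Itgb4 reaches its highest level, 67.0 CPM, in the library with the highest Schwann cell score.

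Itgb2, the beta subunit shared by the leukocyte integrins, had the largest fall against both controls of the members called. It was measured at 11.7, 14.9 and 10.9 CPM in Mkx-CreER/flox, 29.3, 31.6 and 17.7 in Mkx-CreER/+ and 28.1, 26.6, 38.8 and 29.0 in Mkx flox/+. Every Mkx-CreER/flox library lay below all controls, for a 2.26-fold fall against both (log2 fold change -1.18, SE 0.225; edgeR adjusted p = 0.0197) and a 2.45-fold fall against Mkx flox/+ (-1.29, SE 0.242; edgeR adjusted p = 0.0101). The call against both controls was lost without Mkx-CreER/+ 1 (adjusted p = 0.0563), Mkx-CreER/+ 2 (0.0559) or Mkx-CreER/flox 4 (0.0538), and the call against Mkx flox/+ held in all 10 omissions. Itgam, whose product joins that of Itgb2 in the receptor Mac-1 of macrophages and neutrophils, stood at 22.5, 21.2 and 21.7 CPM in Mkx-CreER/flox and between 25.7 and 44.2 in the controls, without overlap, and was not called by edgeR (-0.61, SE 0.194; adjusted p = 0.0836). It was called by DESeq2 (-0.61, adjusted p = 0.0415), by limma voom (-0.65, 0.00849), and by edgeR without Mkx-CreER/+ 4 (-0.70, 0.0475). Of its exon length, 68.7% is shared with a numbered gene model on the same strand.

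The 16 macrophage markers, of which none was at 0 in every library, summed to 824.0 to 958.2 CPM in Mkx-CreER/flox, 1214 to 2919 in Mkx-CreER/+ and 1836 to 2922 in Mkx flox/+, and thus also lay below all controls. With the macrophage score as a term of the fit, the log2 fold change of Itgb2 against both controls was -0.32 and that of Itgam 0.03, and no member was called (2 had an unadjusted p under 0.05). In that fit 1 gene of the whole table was called, and 558 of 16017 had an unadjusted p under 0.05. The score of the 3 Mkx-CreER/flox libraries lay below that of all 7 controls, so that score and genotype can hardly be told apart. Itgal, Itgax, Itgae and Itgb7, subunits of lymphocytes and dendritic cells, stood at group means between 0.642 and 6.37 CPM and were not called (log2 fold changes -0.37, -0.43, 0.44 and -0.65 against both controls). The summed markers of lymphocytes lay at 4.22 to 5.61 CPM in Mkx-CreER/flox and up to 10.4 in the controls, and those of neutrophils at no more than 12.2 CPM in any library.

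Itgad, the alpha subunit αD of some tissue macrophages, went the other way. It had 36, 18 and 11 counts in Mkx-CreER/flox (3.26, 0.884 and 0.813 CPM), 7, 18 and 12 in Mkx-CreER/+ (0.518, 0.946 and 0.505 CPM) and 3, 2, 0 and 1 in Mkx flox/+ (0.292, 0.227, 0 and 0.12 CPM). The Mkx flox/+ libraries are at or under the limit that 3 counts set, and Mkx-CreER/flox overlapped Mkx-CreER/+. Itgad rose against Mkx flox/+ (log2 fold change 3.42, SE 0.91; edgeR adjusted p = 0.0326), a fitted value that depends on the prior count, and was not called by edgeR against both controls (2.36, SE 0.7; 0.0632). Its 3 Mkx-CreER/flox libraries and 1 Mkx-CreER/+ library, and none of Mkx flox/+, reached the count filter (0.77 CPM), so that it was tested because of the group in which it is higher, and nothing is read from the call. Fitted on Mkx-CreER/flox and Mkx flox/+ alone it was not called (3.41, edgeR adjusted p = 0.053). The call against Mkx flox/+ was lost in 7 of the 10 omissions, among them that of Mkx-CreER/flox 1 (2.47, adjusted p = 0.176), and held when Mkx-CreER/+ 2, Mkx-CreER/+ 4 or Mkx-CreER/flox 5 was left out. Of its exon length, 12.4% lies under other genes on the opposite strand, among them Cox6a2, which encodes a muscle subunit of cytochrome oxidase. Cox6a2 stood at 203.6, 94.4 and 77.6 CPM in Mkx-CreER/flox, and between 22.5 and 69.0 in the controls, and rose against both controls (1.36, SE 0.343; edgeR adjusted p = 0.0464). Without the strand setting of the counting, reads of Itgad and Cox6a2 cannot be told apart where they overlap.

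Of 15 focal adhesion proteins tested, on the cytoplasmic side of the receptor, edgeR called 0 against both controls (2 had an unadjusted p under 0.05, DESeq2 called 1 and limma voom 2) and 1 against Mkx flox/+. Over all genes 4.65% and 7.27% were called, so that at 15 genes these counts are near the background and are no result about these proteins. The one called was Parvb, the beta parvin, which links integrin-linked kinase to actin. It stood at 26.5, 27.2 and 26.3 CPM in Mkx-CreER/flox, 19.3, 22.7 and 22.2 in Mkx-CreER/+ and 14.4, 10.9, 19.0 and 19.2 in Mkx flox/+, with no overlap between any of the 3 genotypes. Parvb rose 1.68-fold against Mkx flox/+ (log2 fold change 0.74, SE 0.213; edgeR adjusted p = 0.0474) and was not called against both controls (0.53, SE 0.189; 0.121). Every omission of a library but that of Mkx flox/+ 4 ended the call (0.60 to 0.85, edgeR adjusted p up to 0.131), as did upper-quartile scaling (0.69, edgeR adjusted p = 0.0619), no filter on low counts (0.0543), removal of mitochondrial, muscle and erythroid genes (0.0545), and a fit of the 2 groups alone (0.0806). Against both controls limma voom called it (0.56, adjusted p = 0.0153). Lims1, which encodes PINCH1, stood at 202.7, 124.4 and 101.5 CPM in Mkx-CreER/flox, 90.8, 83.2 and 114.8 in Mkx-CreER/+ and 88.3, 86.0, 81.3 and 98.2 in Mkx flox/+, and was not called by edgeR (0.63, SE 0.191; adjusted p = 0.0723), while DESeq2 (0.64, 0.0434) and limma voom (0.45, 0.0258) called it. Mkx-CreER/flox 1 set most of that value (0.27 without it, edgeR adjusted p = 0.45), and Lims1 was called without Mkx-CreER/flox 5 (0.81, edgeR adjusted p = 0.0226). Lims2, Parva and Parvg were not called, at -0.24 (SE 0.229), -0.25 (SE 0.154) and 0.42 (SE 0.557) against both controls, although limma voom called Parva against Mkx flox/+ (-0.47, adjusted p = 0.0232).

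Fermt3, the kindlin of blood cells, had the smallest p of the talins and kindlins, at 3.35, 5.60 and 6.43 CPM in Mkx-CreER/flox, 9.32, 10.5 and 5.63 in Mkx-CreER/+ and 5.55, 8.29, 10.3 and 5.75 in Mkx flox/+ (log2 fold change -0.63, SE 0.309; edgeR adjusted p = 0.264). Fermt2 stood at 368.1, 266.3 and 235.8 CPM in Mkx-CreER/flox, 267.7, 206.3 and 265.0 in Mkx-CreER/+ and 252.9, 219.6, 208.9 and 242.3 in Mkx flox/+ (0.28, SE 0.171; edgeR adjusted p = 0.377). Both overlapped the controls, as did the talins Tln1 (-0.16, SE 0.205) and Tln2 (0.18, SE 0.155). Fermt1, the kindlin of epithelia, had 2 counts in Mkx-CreER/flox 5 and none elsewhere. Tns2, a tensin, had the smallest p among the load-bearing and signalling proteins, with 72.4, 142.1 and 193.0 CPM in Mkx-CreER/flox, 168.2, 175.6 and 146.3 in Mkx-CreER/+ and 190.8, 220.6, 227.6 and 175.3 in Mkx flox/+ (-0.42, SE 0.233; edgeR adjusted p = 0.327). Tns1 was spread as widely, at 399.9, 703.7 and 912.6 CPM in Mkx-CreER/flox, beside 674.4, 718.8 and 761.4 in Mkx-CreER/+ and 669.1, 750.8, 668.0 and 637.8 in Mkx flox/+ (-0.06, SE 0.219; edgeR adjusted p = 0.918). For both tensins Mkx-CreER/flox 1 was the lowest of the 10 libraries. Paxillin (Pxn), vinculin (Vcl), focal adhesion kinase (Ptk2) and zyxin (Zyx) were not called, with log2 fold changes of 0.33 (SE 0.189), 0.08 (SE 0.153), 0.05 (SE 0.143) and -0.35 (SE 0.262).

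Against Mkx-CreER/+ alone, the control that shares the CreER allele, edgeR called 0 of the 41 members, where 0.00624% of all genes were called, a single gene. An unadjusted p under 0.05 was found for 1720 of all 16017 genes and for 9 members: Itgb2, Itga8, Itgb8, Itgb6, Itga6, Itga2, Itgam, Lims1 and Itgb5. Their fold changes had the sign seen against Mkx flox/+, with Itgb2 at -1.06 (SE 0.252), Itga8 at 1.33 (SE 0.347), Itgb6 at 1.62 (SE 0.524), Itga2 at -0.49 (SE 0.195) and Itgb5 at -0.49 (SE 0.2), and the smallest adjusted p was 0.328. By other methods DESeq2 called 3 of them (Itga8, Itgb2 and Itgb6) and limma voom 4 (Itga8, Itgb2, Itgb5 and Itgb8). Over all 16017 genes, DESeq2 called 126 and limma voom 715 in this comparison. It holds the same Mkx-CreER/flox libraries as the comparison with Mkx flox/+, so the shared signs are no independent repeat. Without Mkx-CreER/+ 4, edgeR called Itgb2 (-1.30, adjusted p = 0.0386), where 117 of all 16462 genes tested were called. Between the 2 controls no member was called by edgeR, where 0% of all genes were called. An unadjusted p under 0.05 was found for 798 of all genes, 4 of them members. Itga2 had the smallest p of these 4 members, at -0.82 (SE 0.185) in Mkx-CreER/+ relative to Mkx flox/+ (edgeR adjusted p = 0.489). It was the 1 member that DESeq2 called, where 37 of all genes were called, with limma voom calling 0. Itgb5 (-0.44, SE 0.188), Itgad (2.12, SE 0.942) and Itgae (1.47, SE 0.564) were the other 3. The control genotypes differ in the CreER allele and in the floxed allele, and which of these goes with the lower Itga2 cannot be told apart.

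Genes that work beside integrins were read from 3 lists, of other adhesion-site proteins, integrin ligands and regulators of integrin activation, beside the 3.03% of all genes that rose against both controls and the 1.62% that fell. Of 49 other adhesion-site proteins, all tested, 9 rose against both controls, 0 fell and 40 were not called, with a median log2 fold change of 0.12. The 4 of smallest p were Sorbs2 (1.27, SE 0.203; edgeR adjusted p = 0.0113), a vinculin-binding adaptor, Enah (1.47, SE 0.243; 0.0142), which lengthens actin filaments, Flnc (1.86, SE 0.319; 0.0167), the filamin of muscle, and Nexn (1.69, SE 0.317; 0.0224), an actin-binding protein of heart and skeletal muscle. Flnc stood at 540.7, 781.9 and 586.1 CPM in Mkx-CreER/flox, 152.5, 188.7 and 399.1 in Mkx-CreER/+ and 78.8, 113.4, 91.0 and 216.0 in Mkx flox/+, with no overlap between Mkx-CreER/flox and the controls. Nexn stood at 238.4, 114.4 and 72.5 CPM in Mkx-CreER/flox and up to 76.4 in the controls, highest in the library richest in muscle markers. Of 33 tested integrin ligands, 4 fell and 3 rose. The collagen I chains Col1a1 (-1.74, SE 0.357; edgeR adjusted p = 0.0224) and Col1a2 (-1.47, SE 0.331; 0.0282), the collagen-associated Tgfbi (-1.29, SE 0.21; 0.0138) and tenascin C (Tnc, -1.0, SE 0.249; 0.0361) fell. Col1a1, the main ligand of the collagen receptors in tendon, stood at 3058, 4299 and 4903 CPM in Mkx-CreER/flox, 8689, 6706 and 7633 in Mkx-CreER/+ and 23590 to 37750 in Mkx flox/+ but for 10600 in Mkx flox/+ 3. Periostin (Postn, 1.46, SE 0.318; 0.0289), vitronectin (Vtn, 1.09, SE 0.285; 0.0416), a ligand of the Itgb5 receptor among others, and the laminin chain Lama2 (0.72, SE 0.191; 0.0457) rose. Of 10 tested regulators of integrin activation, such as Rap1a, Rap1b and Sharpin, edgeR called 0 (3 had an unadjusted p under 0.05, DESeq2 called 1 and limma voom 2). Of these 92 tested genes in all, 16 were called (4.65% of all genes were), and the count fell to 2 with the muscle score as a term of the fit, to 3 without Mkx-CreER/+ 2 or without Mkx-CreER/flox 4, to 4 without Mkx-CreER/+ 1 or without Mkx-CreER/flox 1, and to 7 without Mkx flox/+ 1.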

How the data were processed

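Achilles tendon RNA was sequenced in 10 libraries. The values used are the raw counts per Ensembl gene that the authors deposited. Fastp (read trimming) and STAR (alignment) are named, with the build mm10, per the submitters' processing notes. No source used here gives versions, counting tool, annotation release or strand setting. Each Mkx flox/+ column was tied to its sample by name. For the other columns only the genotype could be read, because the column numbers do not match the label numbers. Symbols came from the gene name table (32158 identifiers matched, 127 did not), and exon lengths, positions and overlaps from GENCODE for mm10.

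Tests used edgeR 4.0.16 in R 4.3.3: filterByExpr by genotype, TMM scaling, and 1 robust quasi-likelihood fit over all libraries, with genotype as the term. Mkx-CreER/flox was set against both controls averaged, then against each, and the controls against each other. Genes with a Benjamini-Hochberg adjusted p under 0.05, over all genes tested, were called. The method was tested on simulated data, and the outcome is not given here and is not used as support for any call. Alternatives were DESeq2 1.42.0, limma 3.58.1 voom with sample quality weights, other scalings and filters, muscle, macrophage and Schwann cell scores (mean log2 CPM of the list, prior count 2) as covariates, and each library left out. Ratios were compared by exact permutation tests in scipy 1.17.1, over the 3 Mkx-CreER/flox libraries and 7 controls.

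At the depths given, 3 counts correspond to 0.132 to 0.346 CPM per library, which covers counting error only. Any pair of libraries within a genotype differed by 23.6 to 118.8 times counting error (chi-square per degree of freedom over genes with at least 20 summed counts), more than repeat runs of 1 library would; separate libraries of the same tissue could differ as much.

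The members, roles, gene lists and tests were chosen with earlier results of these data known. All members are named; values in every library are given for members called in any comparison, the 5 of highest mean RPKM, and the member of smallest p in each role group with none called; Itga1, Itgb4, Itgam and Lims1, and the single values of Flnc, Nexn, Col1a1 and Cox6a2, were added after their values were seen. Of the pathway lists (other adhesome, integrin ligands, activation and inhibition of integrins), up to 4 called genes per list and direction are named. Marker lists were tendon, skeletal muscle, macrophage, lymphocyte, neutrophil, platelet and megakaryocyte, endothelial, mural and smooth muscle, Schwann cell, epidermis, adipocyte and erythroid. Promoter windows came from RefSeq, in which 30 of the 43 members, 5 of the 7 called against both controls, had an entry. Of these 5 windows 4 are printed, chosen by smallest p against both controls among the falls and the rises separately.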

Additional observations from a re-analysis of the deposited data

How the results depend on the processing

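Against both controls 7 members were called, and the count was 12 by limma voom, 1 with the muscle score as a covariate, 0 with the macrophage score, and 0 to 7 when 1 library was left out. Against Mkx flox/+ alone the count was 10, with 2 under the muscle score, 0 under the macrophage score and 4 to 9 when 1 library was left out. It was 6 without Mkx-CreER/+ 1, 5 without Mkx flox/+ 2, and 4 without Mkx-CreER/flox 4, Mkx flox/+ 1 or Mkx flox/+ 3. Against Mkx-CreER/+ the count of 0 became 3 by DESeq2, 4 by limma voom, and 0 to 1 when 1 library was left out, and between the controls the count of 0 became 1 by DESeq2. The 16 pathway genes became 30 by limma voom, 2 under the muscle score, 0 under the macrophage score, and 3 to 19 when 1 library was left out. The table as a whole was as sensitive: 744 genes were called against both controls, and 2991 by limma voom. The count was 88 under the muscle score, 1 under the macrophage score, 67 without Mkx-CreER/+ 2 and 64 without Mkx-CreER/flox 4. Against Mkx-CreER/+ the 1 gene called became 126 by DESeq2 and 715 by limma voom. Between the controls the count of 0 genes became 37 by DESeq2. The cause was not tested, beyond the fewer samples left by an omission. Of 3430 alternative values for single members, 121 lost a call and 37 gained one, and no value that passed in either fit changed sign; 197 values that passed in neither did. The 6 ratios with an adjusted p of 0.0444 also passed without Mkx-CreER/+ 4; without a Mkx-CreER/flox library none can. No paired analysis was possible because the columns of Mkx-CreER/+ and Mkx-CreER/flox carry numbers that do not match the label numbers. Depth limits Itgad, Itgae, Parvg and Fermt1, whose counts are few.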
